A study of Mus musculus with 12 samples.

Results

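The miR-379 to miR-410 cluster is a run of microRNA (miRNA) hairpins on mouse chromosome 12. It was taken here as both arms of 33 hairpins from mmu-mir-379 to mmu-mir-3072, chosen by name, which gave 65 of the 1915 mature miRNA names in the deposited tables. The hairpins lie at chr12:109709060-109747960 (GRCm38). By the GENCODE annotation 22 of them lie outside the host gene Mirg, 8 overlap its exons and 3 lie in its introns. The choice left out 6 hairpins of the same stretch, mir-323, mir-409, mir-412, mir-496a, mir-543 and mir-667. Earlier results of these data had shown strands of those 6 as higher under the treatment, so their values are set beside the others further on.

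Small RNA had been sequenced from dissected mouse striatum in 12 libraries, 3 in each of 4 groups. The groups were R6/2 mice given AAV, a viral vector, with a short hairpin RNA against TRAX (R6/2 shTRAX), R6/2 mice with the control AAV (R6/2 control), wild-type mice with the shTRAX virus (WT shTRAX) and wild-type mice with the control virus (WT control). R6/2 mice, labelled as the line B6CBA-Tg(HDexon1)62Gpb/3J, carry exon 1 of the human huntingtin gene with an expanded repeat and serve as a model of Huntington's disease. All 4 groups were of the strain B6CBAFI/J per the labels, all received virus in both striata at 5 weeks, and all were sampled at 10.5 weeks. TRAX, the product of Tsnax, is a partner of translin in a complex that cleaves RNA. Its mRNA was not measured in these libraries, so the knockdown could not be checked. The labels do not say which cells the virus entered. In whole tissue of this kind, fewer cells of a type and less RNA per cell cannot be told apart.

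The cluster belongs to the imprinted Dlk1-Dio3 region, where the miRNA genes are expressed from the maternal chromosome, and its miRNAs are enriched in neurons. In rat neurons, activity raises transcription of the cluster through the factor Mef2, and miR-134-5p limits the size of dendritic spines by repressing Limk1. Mice that lack the cluster show altered social behaviour and stronger excitatory transmission. A hairpin yields a 5p and a 3p mature strand, and targets are chosen mainly through the seed, bases 2 to 8 from the 5′ end of the strand.

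RefSeq (GRCm38.p6) held mature sequences for 61 of the 65 members, with 55 distinct seeds. It held none for miR-376c-3p, miR-485-5p, miR-487b-3p and miR-539-3p, so these are not shown though some enter the comparisons. The sequences below are of other strands on which the comparisons turn, with the seed in capitals, and related strands stand next to each other.
miR-379-5p: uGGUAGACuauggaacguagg
miR-411-5p: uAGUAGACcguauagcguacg
miR-379-3p: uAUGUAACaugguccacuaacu
miR-411-3p: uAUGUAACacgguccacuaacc
miR-380-3p: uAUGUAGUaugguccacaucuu
miR-299a-5p: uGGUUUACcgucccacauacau
miR-299b-5p: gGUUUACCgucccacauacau
miR-376b-5p: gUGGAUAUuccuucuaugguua
miR-376c-5p: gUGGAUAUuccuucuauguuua
miR-376b-3p: aUCAUAGAggaacauccacuu
miR-376a-3p: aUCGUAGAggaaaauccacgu
miR-300-3p: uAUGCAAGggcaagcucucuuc
miR-381-3p: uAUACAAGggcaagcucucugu
miR-679-5p: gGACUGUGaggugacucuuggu
miR-539-5p: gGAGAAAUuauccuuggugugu
miR-134-5p: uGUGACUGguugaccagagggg
miR-495-3p: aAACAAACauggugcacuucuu
miR-154-3p: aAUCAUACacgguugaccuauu
miR-369-3p: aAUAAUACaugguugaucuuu
miR-668-3p: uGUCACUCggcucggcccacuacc
All 20 but miR-299b-5p lie on the plus strand of chromosome 12. On GRCm38 miR-379-3p lies at chr12:109709102-109709123, miR-411-3p at chr12:109710225-109710246 and miR-679-5p at chr12:109715587-109715608, all outside Mirg. The seed AUGUAAC was shared by miR-379-3p and miR-411-3p, AUGUGGG by miR-299a-3p and miR-299b-3p, and UGGAUAU by miR-376b-5p and miR-376c-5p. These were the 3 of 6 shared seeds for which both strands were abundant enough to test. With positions counted from the 5′ end, miR-379-3p and miR-411-3p differed at U10C and U22C, and miR-376c-5p and miR-376b-5p at U19G alone. The abundant pair miR-300-3p and miR-381-3p differed at G4A, U21G and C22U, the first of which lies in the seed. Counts of strands this alike depend on how reads were assigned, which no source used here states. The hairpins mir-299a and mir-299b lie on opposite strands of one site, and each mature strand of mir-299b lies within the matching strand of mir-299a (18 of 22 bases for 3p and 21 of 22 for 5p), so their counts are uncertain. Primary transcripts of the miR-376 group undergo A-to-I editing in brain, and how edited reads were counted is not stated either.

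Levels ran over several orders of magnitude within the cluster. Here 11 members averaged above 1000 CPM (counts scaled by library size) over the 12 libraries, 13 lay between 100 and 1000, 17 between 10 and 100, 13 between 1 and 10, and 11 at 1 or below. miR-300-3p averaged 4321 CPM and ranked 40 among all mature miRNAs. miR-379-5p averaged 4113 CPM and miR-411-5p 4016 CPM, at ranks 41 and 42. They were followed by miR-382-5p, which in rat represses the dopamine receptor gene Drd1, at 3498 CPM, miR-381-3p at 2577 CPM, miR-376b-5p at 2319 CPM, miR-154-5p at 2023 CPM and miR-376b-3p at 1987 CPM. These 8 strands held 76.3% of the counts on the cluster.

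The partner strands of the leading hairpins were far lower, at 143 CPM for miR-300-5p, 111 CPM for miR-379-3p, 38.2 CPM for miR-411-3p and 7.46 CPM for miR-381-5p. mir-376b was the exception, with arms of similar level. Among members known from neurons, miR-134-5p averaged 211 CPM, miR-485-5p, which represses Sv2a in rat neurons, 46.5 CPM, and miR-329-3p 22.6 CPM. miR-541-5p averaged 1452 CPM, miR-369-3p 1386 CPM, miR-376a-3p 777 CPM, miR-494-3p 32.1 CPM, and miR-410-3p 15.2 CPM.

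High and low levels occurred both inside and outside the host gene. The 44 members outside Mirg had a median of 35.1 CPM and reached 4321 CPM, the 16 in its exons had a median of 40.6 CPM and reached 3498 CPM, and the 5 in its introns had a median of 17.8 CPM and reached 2023 CPM. A filter on low counts left 55 members for testing over all 12 libraries. The other 10 had at most 8 raw counts in any library, and 2 of them, miR-453 and miR-654-5p, had none anywhere, which allows up to 0.177 to 0.217 CPM depending on the library.

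**Figure D1:**
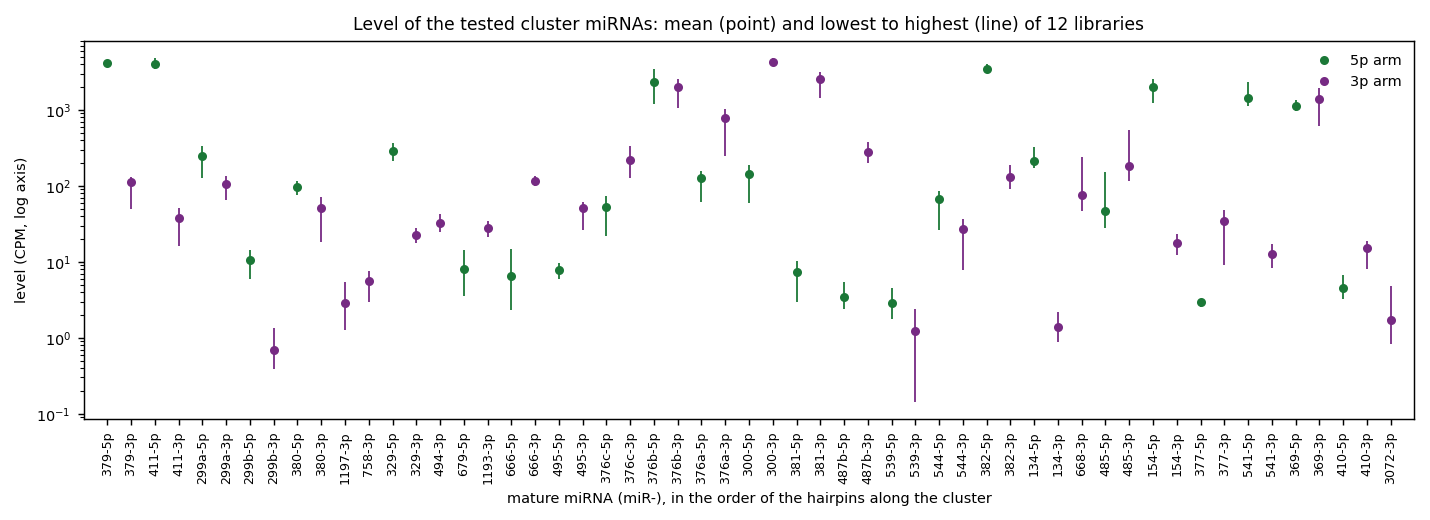
Mean CPM (points, log axis) and the range over 12 libraries (lines) of the 55 tested cluster miRNAs, in the order of their hairpins, with 5p and 3p strands in different colours. The abundant strands lie throughout the cluster, from miR-379-5p at 4113 CPM near one end to miR-369-3p at 1386 CPM near the other.

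Members also differed in how far they varied over the 12 libraries. The ratio of highest to lowest library was 1.21 for miR-379-5p and 1.23 for miR-300-3p, against a median of 2.45 over the 55 tested members. It was 2.90 for miR-376b-5p, which is also abundant, and 1.29 for the scarce miR-377-5p. The ratio was highest for miR-539-3p at 16.7, which had 0.143 to 2.38 CPM, followed by miR-666-5p at 6.29, miR-3072-3p at 5.75 and miR-485-5p at 5.57.

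The cluster took a small share of all miRNA counts. Its share was 3.13%, 3.13% and 2.77% in the R6/2 shTRAX libraries, 3.18%, 3.11% and 3.13% in R6/2 control, 3.47%, 3.46% and 3.61% in WT shTRAX, and 3.30%, 3.42% and 3.32% in WT control. The mean was 3.01% ± 0.203 in R6/2 shTRAX, 3.14% ± 0.0368 in R6/2 control, 3.51% ± 0.0826 in WT shTRAX and 3.35% ± 0.0604 in WT control (SD, n = 3). Every R6/2 library lay below every WT library. The 95% Wilson interval of a library's share reached at most 0.00952 percentage points either way, which covers counting error only. The level of the share rested on how repeated rows were treated, since summing the rows of miRNAs with several precursors gave means of 1.79% in R6/2 shTRAX, 1.85% in R6/2 control, 2.08% in WT shTRAX and 1.99% in WT control.

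One library, R6/2 shTRAX 3, stood apart. On the first principal component of all tested miRNAs, which held 34.2% of the variance, it lay at 24.46 and the other 11 libraries between -5.39 and 0.40. Within the cluster its deviations from the mean of the 12 libraries followed base composition, with a Spearman coefficient of 0.72 on the GC content of 51 members with a RefSeq sequence, against 0.62 over 564 miRNAs of all kinds. Its median deviation was -1.13 on the log2 scale for the 15 members under 40% GC, -0.42 for the 27 from 40% to 50%, and 0.67 for the 9 above 50%. In the other libraries the coefficient over the members ran from -0.62 in WT shTRAX 3 to 0.14. Values without library 3 are given beside most results it enters, and values adjusted for GC content where the adjustment took a call away. Shares of counts, groups apart in level and single strand ratios are not given again without library 3. Calls that the adjustment added are not given one by one.

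**Figure D2:**
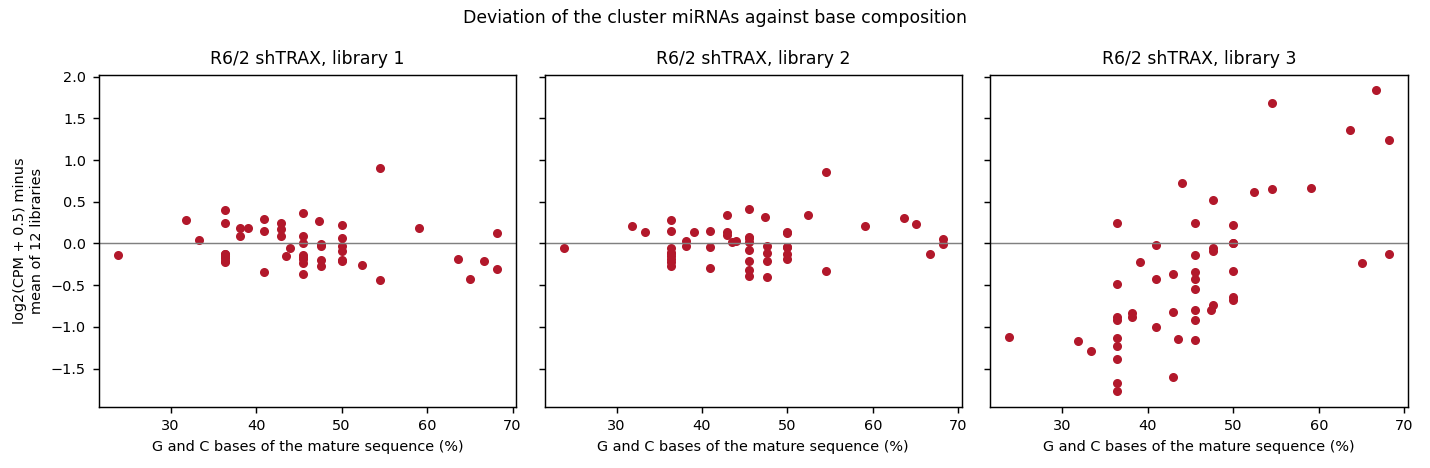
Deviation of each tested cluster miRNA from its mean over the 12 libraries (log2 of CPM + 0.5) against the GC percentage of its mature sequence, one panel for each R6/2 shTRAX library. In library 3 the AU-rich strands lie below 0 and the GC-rich ones above it, with medians of -1.13 under 40% and 0.67 above 50%.

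Deposited counts summed to 23462111 to 28589763 per library, and 13849777 to 16907910 remained after 1 row was kept per mature name. Marker miRNAs of neurons summed to 189628 to 249886 CPM in R6/2 shTRAX, 244579 to 279316 in R6/2 control, 215088 to 277085 in WT shTRAX and 247577 to 255384 in WT control, with all 9 detected in every group. Markers of microglia and blood-derived cells (7 of 7 tested) summed to 2168 to 3549 CPM in R6/2 shTRAX, 3219 to 9497 in R6/2 control, 3741 to 17063 in WT shTRAX and 5705 to 14149.7 in WT control. Markers of choroid plexus and ependyma (7 of 7) summed to 5074 to 5624 CPM in R6/2 shTRAX, 1814 to 8446 in R6/2 control, 1887 to 5654 in WT shTRAX and 1901 to 2269.8 in WT control. Oligodendrocyte markers (4 of 4) summed to 5555 to 10553 CPM in R6/2 shTRAX, 9888 to 11025 in R6/2 control, 9106 to 10779 in WT shTRAX and 8873 to 10686 in WT control. Vessel markers (4 of 4) summed to 28557 to 38372 CPM in R6/2 shTRAX, 34949 to 38756 in R6/2 control, 28865 to 34293 in WT shTRAX and 30445 to 30878 in WT control. Hindbrain and spinal cord markers (3 of 4 tested) summed to 6.52 to 13.3 CPM in R6/2 shTRAX, 10.5 to 17.1 in R6/2 control, 6.998 to 83.4 in WT shTRAX and 14.3 to 37.7 in WT control. No marker was at 0 throughout a group, and the part of these differences in the results below was not tested.

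The first comparison asked how the cluster differed between R6/2 and WT striatum under the control virus. Of 55 members 5 (9.09%) had an adjusted p under 0.05, where 10.6% of all 689 tested miRNAs did. miR-679-5p and miR-539-5p rose, against 7.26% of all miRNAs that did, and miR-487b-3p, miR-411-3p and miR-299a-5p fell, against 3.34%. The median log2 fold change was -0.08 over the members and 0.03 over all miRNAs, and 24 of 55 members lay above 0. Groups did not overlap for 14 higher and 17 lower members, where 48.6% of all miRNAs had groups apart (27.3% higher, 21.3% lower).

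The scarce strand miR-679-5p stood at 9.98, 9.25 and 8.89 CPM in R6/2 control libraries, against 3.55, 4.004 and 4.73 CPM in WT control libraries. Each R6/2 library was above each WT library, with at most 198 raw counts in any library. The difference was 1.18 ± 0.19 on the log2 scale (SE, edgeR's quasi-likelihood test, Benjamini-Hochberg adjusted p = 0.00276), and it passed in all 24 alternative settings tried. miR-539-5p, with at most 60 raw counts, stood at 4.17, 4.48 and 3.01 CPM in R6/2 control and 1.75, 1.90 and 1.96 CPM in WT control. Its groups did not overlap either (1.04 ± 0.26, adjusted p = 0.0273).

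Among the strands that fell, miR-487b-3p stood at 226, 199 and 221 CPM in R6/2 control and 313, 308 and 316 CPM in WT control (-0.55 ± 0.14, adjusted p = 0.0273). miR-411-3p, the rarer strand of its hairpin, stood at 36.1, 29.6 and 27.3 CPM in R6/2 control and 51.7, 49.0 and 46.8 CPM in WT control (-0.68 ± 0.18, adjusted p = 0.0358). Its abundant partner miR-411-5p had 4087, 3795 and 3587 CPM in R6/2 control and 4462, 4785 and 4540.4 CPM in WT control (-0.28 ± 0.11, adjusted p = 0.137). Both strands of mir-411 were thus lower in each R6/2 library, and only the rarer one passed. miR-379-3p, with the same seed as miR-411-3p, did not pass in this comparison. miR-299a-5p, with the caution about mir-299b, had 244, 229.5 and 199 CPM in R6/2 control and 339.9, 331 and 313 CPM in WT control (-0.56 ± 0.15, adjusted p = 0.0399).

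The next members by unadjusted p did not pass. On the higher side miR-376b-5p had 3009.8, 3477 and 2845 CPM in R6/2 control and 1809, 1785 and 1750.0 CPM in WT control (0.79 ± 0.28, adjusted p = 0.0955). Its groups stood far apart, at means of 3110.4 ± 328 and 1781 ± 29.6 CPM (SD, n = 3). miR-495-5p (0.47 ± 0.19, adjusted p = 0.139) and miR-154-5p (0.35 ± 0.18, adjusted p = 0.26) also had groups that did not overlap. On the lower side were miR-382-3p (-0.56 ± 0.18, adjusted p = 0.0702) and miR-369-5p (-0.30 ± 0.10, adjusted p = 0.085).

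Of the 5 calls, miR-679-5p alone held when any single library was left out. miR-487b-3p, miR-411-3p and miR-299a-5p lost theirs without any 1 of the 6 control-virus libraries, and miR-539-5p without any WT control library or without R6/2 control 1 or 2, with adjusted p up to 0.107, 0.163, 0.195 and 0.121. miR-411-3p and miR-299a-5p also lost theirs without R6/2 shTRAX 2, WT shTRAX 2 or WT shTRAX 3, and miR-299a-5p without R6/2 shTRAX 1. The 12 libraries shared one estimate of spread, so R6/2 shTRAX 3 bore on this comparison too. Without it 20 members passed (7 higher, 13 lower, 36.4%), among 30% of 700 miRNAs, and all 5 were among them. With only the 6 control-virus libraries in the fit 23 passed (10 higher, 13 lower, 41.8%), among 35.2% of 660. With the adjustment for GC content 7 passed (3 higher, 4 lower, 12.7%), among 12.8% of 689, and all 5 were among them. The 7 higher members without library 3 were all 5p strands, and the 13 lower ones were 6 5p and 7 3p strands.

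**Figure D3:**
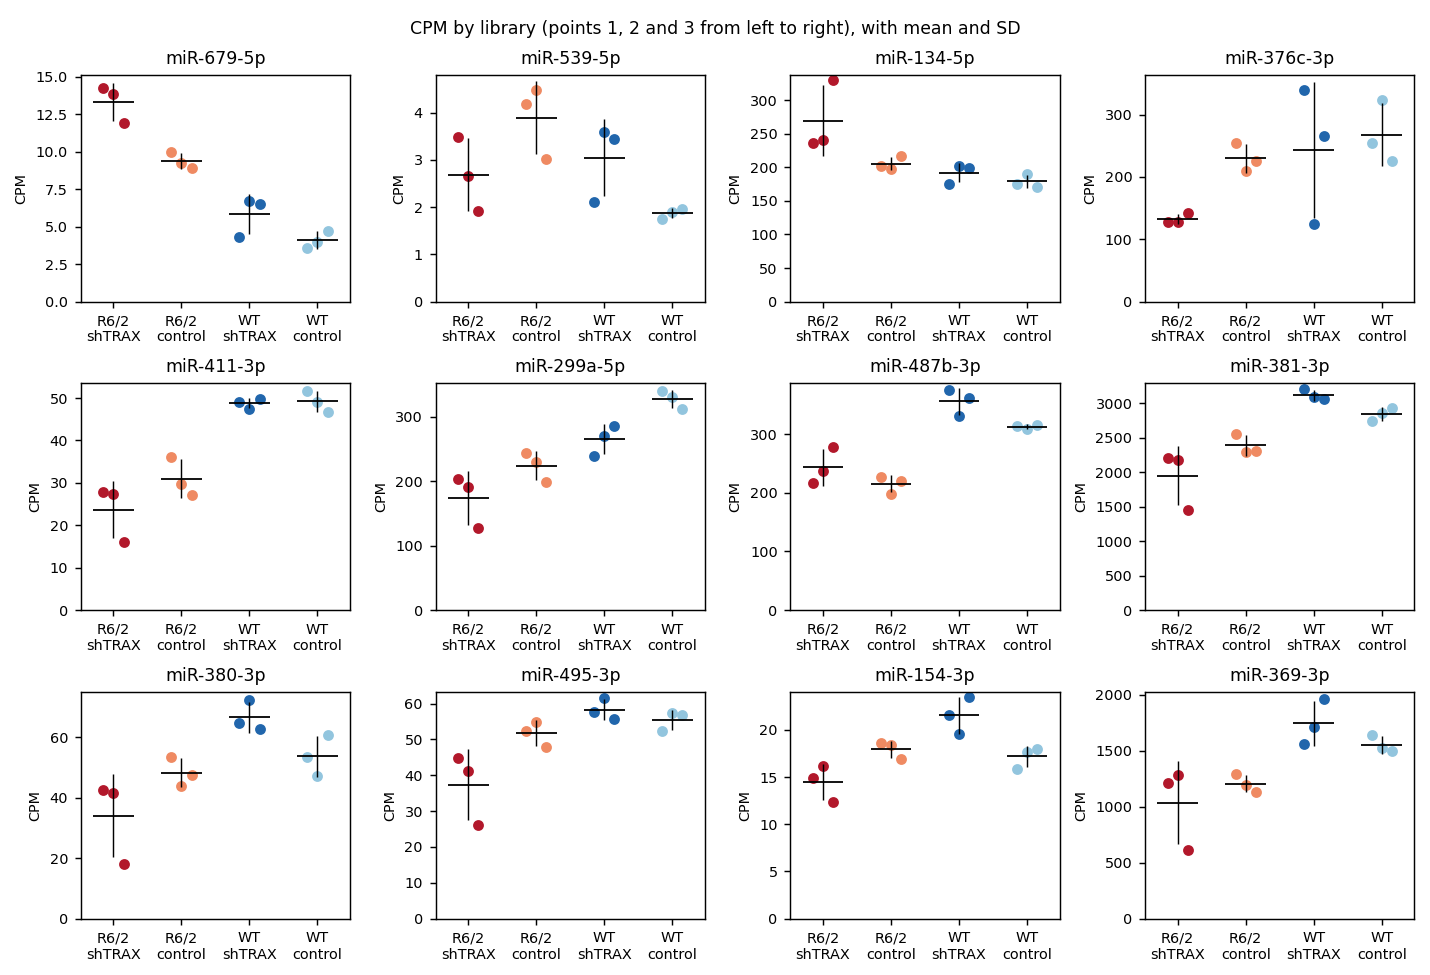
CPM of 12 cluster miRNAs in each library, by group from left to right (R6/2 shTRAX, R6/2 control, WT shTRAX, WT control), with points for libraries 1, 2 and 3, horizontal lines for means and vertical lines for SD (n = 3), on axes from 0. miR-679-5p is highest in both R6/2 groups, and library 3 of R6/2 shTRAX lies lowest in its group for the AU-rich strands such as miR-369-3p at 613 CPM.

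The same contrast under the shTRAX virus gave 10 of 55 members (18.2%), 2 higher and 8 lower, where 13.8% of all 689 miRNAs passed (7.98% higher, 5.81% lower). miR-679-5p and miR-134-5p rose. miR-411-3p, miR-381-3p, miR-154-3p, miR-380-3p, miR-495-3p, miR-299a-5p, miR-487b-3p and miR-369-3p fell, and 7 of these 8 are 3p strands. The median log2 fold change was -0.21 over the members and 0.04 over all miRNAs, with 16 of 55 above 0, and -0.15 and 0.01 without library 3. Groups did not overlap for 3 higher and 14 lower members, against 30.3% of all miRNAs (16.3% higher, 14.1% lower).

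miR-679-5p again led, at 14.3, 13.8 and 11.9 CPM in R6/2 shTRAX libraries and 4.28, 6.69 and 6.48 CPM in WT shTRAX libraries (1.245 ± 0.19, adjusted p = 0.00248). Without library 3 the difference was 1.28 (adjusted p = 0.00112). miR-134-5p, the regulator of spine size, had 236, 240.4 and 329.9 CPM in R6/2 shTRAX and 175, 201 and 198 CPM in WT shTRAX (0.55 ± 0.16, adjusted p = 0.0458). Its highest value came from library 3, without which the difference was 0.33 (adjusted p = 0.0444). With the adjustment for GC content it was 0.30 (adjusted p = 0.0904) and did not pass. miR-134-5p passed in 8 of 25 alternative settings.

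miR-411-3p had 27.8, 27.4 and 15.97 CPM in R6/2 shTRAX and 49.0, 47.5 and 49.8 CPM in WT shTRAX (-1.001 ± 0.18, adjusted p = 0.00705). miR-381-3p, the fifth most abundant member, had 2211, 2186 and 1455 CPM in R6/2 shTRAX and 3208, 3091 and 3058 CPM in WT shTRAX (-0.64 ± 0.13, adjusted p = 0.0125). In both, every R6/2 library was below every WT library, with library 3 lowest. Without library 3 the differences were -0.81 (adjusted p = 0.000532) and -0.49 (adjusted p = 0.00103). Its near twin miR-300-3p had means of 4101 ± 196 CPM in R6/2 shTRAX and 4502 ± 347 CPM in WT shTRAX (SD, n = 3) and did not pass.

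miR-380-3p had 42.6, 41.4 and 18.1 CPM in R6/2 shTRAX and 64.6, 72.3 and 62.7 CPM in WT shTRAX (-0.93 ± 0.25, adjusted p = 0.0327). miR-487b-3p had 216, 237 and 277 CPM in R6/2 shTRAX and 375, 331 and 361 CPM in WT shTRAX (-0.49 ± 0.14, adjusted p = 0.038). Without library 3 these differences were -0.65 (adjusted p = 0.00559) and -0.64 (adjusted p = 0.00106). miR-487b-3p was the one fallen strand for which library 3 was the nearest to WT. miR-299a-5p had 204, 191 and 126.7 CPM in R6/2 shTRAX and 239.6, 269.7 and 286 CPM in WT shTRAX (-0.57 ± 0.15, adjusted p = 0.0349), and was -0.41 without library 3 (adjusted p = 0.0184).

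Of the 8 fallen strands 3 did not pass with the adjustment for GC content. miR-487b-3p passed, but it had no sequence here and was given the median GC content, so its own composition was not adjusted for. miR-369-3p, the member with the lowest GC content at 23.8%, had 1213, 1285 and 613 CPM in R6/2 shTRAX and 1557, 1715 and 1962 CPM in WT shTRAX (-0.72 ± 0.21, adjusted p = 0.041). With the adjustment it was -0.11 (adjusted p = 0.625), and it was -0.47 without library 3 (adjusted p = 0.00658). miR-154-3p had 14.9, 16.1 and 12.4 CPM in R6/2 shTRAX and 21.6, 19.5 and 23.5 CPM in WT shTRAX (-0.53 ± 0.14, adjusted p = 0.0316). With the adjustment it was -0.20 (adjusted p = 0.418), and -0.46 without library 3 (adjusted p = 0.0181). miR-495-3p, reported to repress Bdnf in rodent brain, had 44.7, 41.2 and 26.2 CPM in R6/2 shTRAX and 57.6, 61.6 and 55.7 CPM in WT shTRAX (-0.60 ± 0.16, adjusted p = 0.0334). With the adjustment it was -0.31 (adjusted p = 0.0611), and -0.43 without library 3 (adjusted p = 0.016).

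Without library 3 all 10 members were still called, among 15 (3 higher, 12 lower). The share of all miRNAs called in that fit is not set beside it here, so the gain is not read as particular to the cluster. In the control-virus contrast leaving out library 3 raised the share of all miRNAs called from 10.6% to 30%. With only the 6 shTRAX libraries in the fit none of 54 passed, where 2 of 650 miRNAs did (0.308%). Leaving out any 1 library of R6/2 control, WT shTRAX or WT control left 3 to 6 members, with 3 without WT shTRAX 3 or WT control 2. The shares of all miRNAs called in those fits are not set beside these counts either. The drop is thus not read as particular to the cluster. Of the 25 alternatives, miR-679-5p, miR-411-3p and miR-381-3p each passed in 24 and missed in the fit of those 6 libraries. The log2 fold change of the members followed GC content with a Spearman coefficient of 0.60 (n = 51), and 0.29 without library 3, against 0.44 and 0.06 over 564 miRNAs.

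miR-679-5p, miR-411-3p, miR-299a-5p and miR-487b-3p were called in both contrasts of genotype, each in the same direction. The 2 contrasts share no libraries but share the estimate of spread. The sign agreed for 33 of 55 members (60%) and for 61% of all 689 miRNAs, and without library 3 for 39 members (70.9%) and 75.6% of 700 miRNAs. By strand, the 25 5p members had a median of -0.03 and the 30 3p members -0.47 under the shTRAX virus, where all 5p strands had 0.07 and all 3p strands 0.01. Without library 3 the medians of the members were -0.05 and -0.26. Under the control virus they were 0.05 for 5p and -0.11 for 3p, where all strands had 0.06 and 0.00. Median GC content was 45.5% for the 5p and 42.9% for the 3p members.

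**Figure D4:**
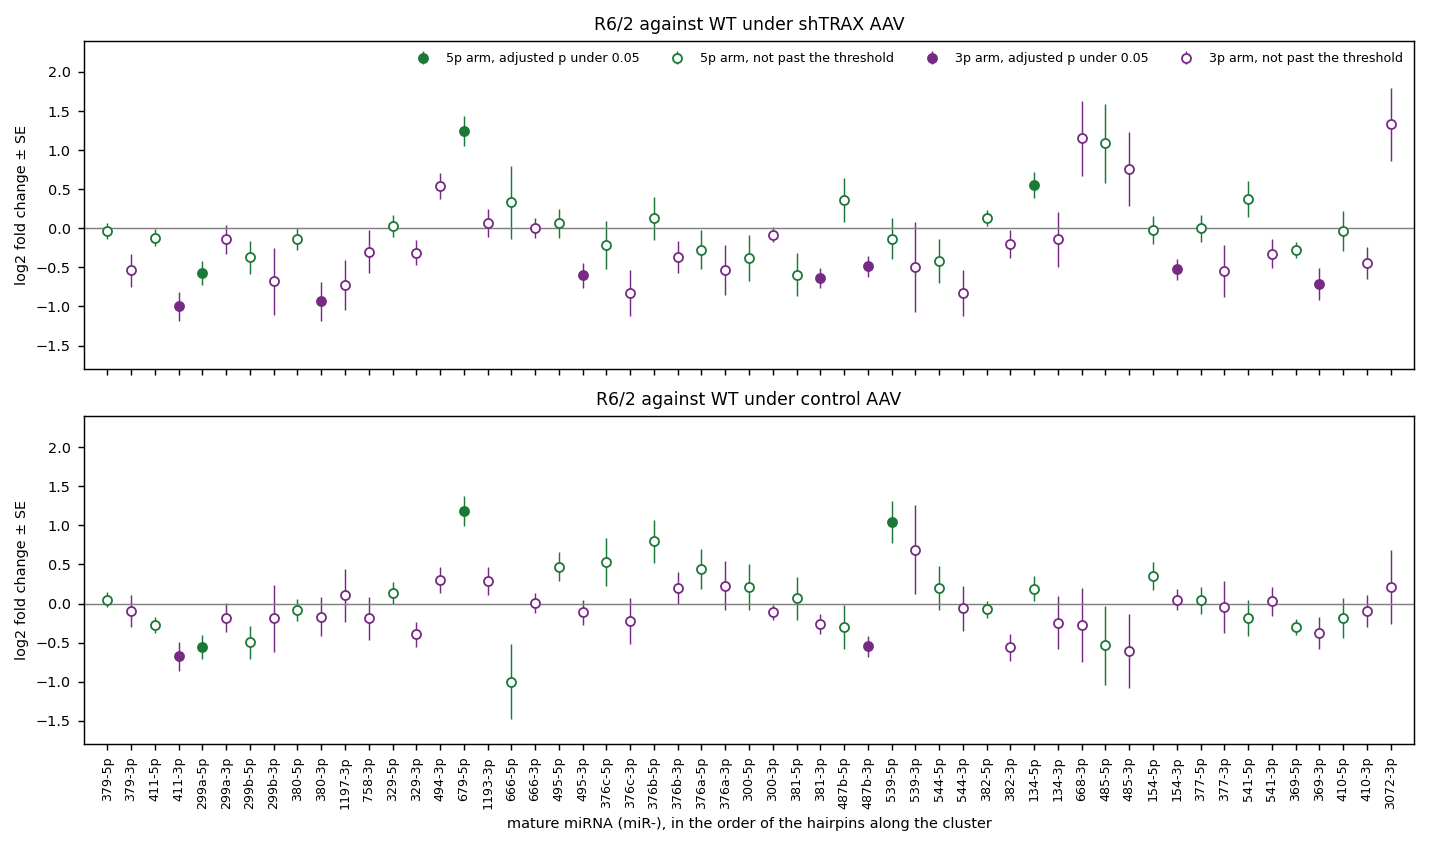
Log2 fold change (± SE) of R6/2 over WT for each tested cluster miRNA in the order of the hairpins, under the shTRAX virus (upper panel) and the control virus (lower panel), with filled points for an adjusted p under 0.05. In the upper panel 7 of the 8 filled points below 0 are 3p strands, and miR-679-5p is filled and above 1 in both panels.

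The ratio of the strands of one hairpin was compared next, since both come from one precursor. Of the 33 hairpins 24 had both strands tested. On average 13 gave more 5p and 11 more 3p, and 12 and 10 of these did so in all 12 libraries. Ratios are log2 of 5p over 3p CPM with 0.5 CPM added to each.

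The balance of several hairpins lay more towards the 5p strand in R6/2 striatum. Under the control virus the groups did not overlap for 13 of 24 hairpins, 11 with a higher and 2 with a lower ratio, where 43.3% of all 215 hairpins had groups apart (56 higher, 37 lower). Under the shTRAX virus the groups did not overlap for 9 hairpins, 8 higher and 1 lower, against 27.9% of all (27 higher, 33 lower). The groups of 6 hairpins were apart in the same direction in both, with mmu-mir-411, mmu-mir-495, mmu-mir-376b, mmu-mir-376a and mmu-mir-544 higher and mmu-mir-299a lower. They made up 46.2% of the 13 and 66.7% of the 9, while over all hairpins the shared ones made up 30.1% of 93 and 46.7% of 60.

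For mir-376b the log2 ratio was 0.46, 0.68 and 0.47 in R6/2 control libraries and -0.04, -0.05 and -0.08 in WT control libraries. The 5p strand thus exceeded the 3p strand in each R6/2 control library and in no WT control library. The difference of 0.59 had an exact two-sided permutation p of 0.1, the smallest that 3 against 3 libraries can give, as had the other ratios below. mir-376c averaged -1.85 ± 0.29 in R6/2 control and -2.59 ± 0.21 in WT control (SD, n = 3). mir-666 moved the other way, at -4.90 ± 0.41 in R6/2 control and -3.95 ± 0.19 in WT control. Its 5p strand had at most 204 raw counts.

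Under the shTRAX virus mir-411 averaged 7.25 ± 0.53 in R6/2 and 6.36 ± 0.09 in WT. mir-380 averaged 1.51 ± 0.47 in R6/2 and 0.64 ± 0.23 in WT, and mir-487b -5.76 ± 0.29 in R6/2 and -6.53 ± 0.08 in WT. In mir-411 and mir-380 the highest ratio was that of R6/2 shTRAX 3, at 7.87 and 2.05. The other R6/2 shTRAX libraries, at 6.94 and 6.95 for mir-411 and 1.19 and 1.29 for mir-380, also lay above every WT shTRAX library. Without library 3 the count of hairpins apart was 11 higher and 1 lower, against 37.7% of all.

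**Figure D5:**
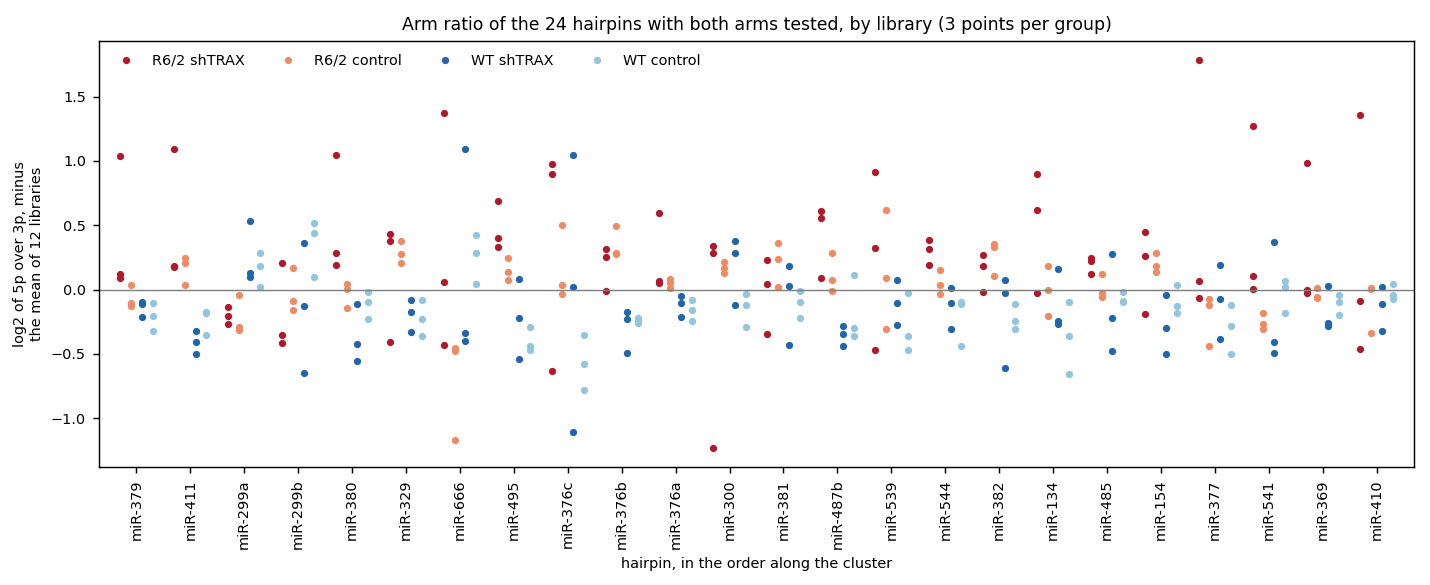
Log2 ratio of 5p over 3p CPM of the 24 hairpins with both strands tested, minus the mean over 12 libraries, with 3 points per group. R6/2 points lie above WT points for mir-411, mir-495, mir-376b and mir-544 under both viruses, and single R6/2 shTRAX points far above the rest, as for mir-377 and mir-541, are library 3.

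The effect of shTRAX within R6/2 was the contrast the study deposited for this genotype. No member passed, 0 of 54, and 0% of 651 miRNAs did by edgeR's quasi-likelihood test. At an unadjusted p under 0.05 there were 5 higher members and 1 lower, where 10.4% of all miRNAs reached it (5.84% higher, 4.61% lower). DESeq2 called 13 of 651 miRNAs, 2 of them members. Groups did not overlap for 5 higher and 12 lower members, where 30% of all had groups apart (12% higher, 18% lower). The median log2 fold change was -0.10 over the members and -0.01 over all, and -0.02 and -0.01 without library 3. Over the members it followed GC content with a Spearman coefficient of 0.64 (n = 50), and 0.41 without library 3. Over all miRNAs with a sequence the coefficients were 0.57 and 0.26.

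miR-376c-3p had 127.1, 128 and 142 CPM in R6/2 shTRAX libraries and 254, 209.8 and 225 CPM in R6/2 control libraries. The 3 treated libraries stood close together at a mean of 132 ± 8.33 CPM, and the control libraries at 229.7 ± 22.6 CPM (SD, n = 3). The difference was -0.72 ± 0.14 (unadjusted p = 0.00197, adjusted p = 0.421). By DESeq2 the adjusted p was 0.00583, and without library 3 edgeR gave -0.80 (adjusted p = 0.0236). With the adjustment for GC content added to that edgeR fit 0 members passed, where 0.301% of 664 miRNAs did. miR-376c-3p had no sequence here and was given the median GC content, so its own composition was not adjusted for. miR-679-5p had 14.3, 13.8 and 11.9 CPM in R6/2 shTRAX and 9.98, 9.25 and 8.89 CPM in R6/2 control (0.58 ± 0.16, adjusted p = 0.421). By DESeq2 its adjusted p was 0.0365, and without library 3 edgeR gave 0.63 (adjusted p = 0.0827). These were the 2 members that DESeq2 called.

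Next by p were both strands of mir-382. miR-382-5p had 3633, 3805 and 4059 CPM in R6/2 shTRAX and 3119.9, 3159 and 3285 CPM in R6/2 control (0.34 ± 0.12, adjusted p = 0.421). miR-382-3p had 112, 125 and 154 CPM in R6/2 shTRAX and 108, 91.9 and 97.3 CPM in R6/2 control (0.48 ± 0.18, adjusted p = 0.428). Neither strand's groups overlapped and neither passed. Without library 3 the differences were 0.27 for miR-382-5p and 0.31 for miR-382-3p (adjusted p = 0.144 and 0.218). miR-495-3p (-0.40 ± 0.21, adjusted p = 0.435) and miR-377-3p (-0.74 ± 0.42, adjusted p = 0.473) were the next lower members, and library 3 was the lowest for both, at 26.2 and 9.19 CPM. Without it they were -0.22 and -0.38 (adjusted p = 0.25 and 0.223).

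Strands of mmu-mir-485 and mmu-mir-668 were high in library 3 alone. miR-485-5p had 32.6, 38.5 and 154 CPM in R6/2 shTRAX and 32.8, 27.6 and 30.0 CPM in R6/2 control. miR-485-3p had 123, 133 and 537 CPM in R6/2 shTRAX and 124, 116 and 128 CPM in R6/2 control. miR-668-3p, with 66.7% GC, had 58.2, 61.5 and 243 CPM in R6/2 shTRAX and 58.4, 53.1 and 56.3 CPM in R6/2 control. Their log2 fold changes of 1.42, 1.21 and 1.22 were 0.29, 0.10 and 0.14 without that library. The authors' deposited list for this contrast held 83 rows, where the full table has 2059, 1 per mature strand and precursor. It held 8 of the 65 members, 7 higher and 1 lower, and the directions of the other listed miRNAs were not counted. Among the 8 were these 3 strands, with signed folds of 2.59, 2.24 and 2.25. In the authors' deposited table no member had an adjusted p under 0.05 in either genotype. Of the 8, miR-376c-3p had the authors' lowest adjusted p there, 0.0675, at a signed fold of -1.68.

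In the strand ratios groups did not overlap for 8 of 24 hairpins, all 8 with a higher ratio of 5p to 3p in R6/2 shTRAX, where 22.3% of all 215 hairpins had groups apart (23 higher, 25 lower). Without library 3 there were 10, again all higher, against 28.8% of all. The 3 with the largest difference were mir-666 (-3.86 ± 0.93 in R6/2 shTRAX and -4.90 ± 0.41 in R6/2 control), mir-377 (-2.66 ± 1.03 in R6/2 shTRAX and -3.46 ± 0.20 in R6/2 control) and mir-541 (7.23 ± 0.70 in R6/2 shTRAX and 6.52 ± 0.06 in R6/2 control), each with its highest ratio in library 3. R6/2 shTRAX 1 and 2 had -4.63 and -4.14 for mir-666, -3.32 and -3.19 for mir-377, and 6.88 and 6.78 for mir-541. The highest R6/2 control ratio of mir-377 was -3.33, close to the first of these. R6/2 control libraries served here and in the contrast of genotype, so the 2 sets of ratios are not independent.

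In WT striatum the chosen members were without a call under shTRAX as well. No member passed, 0 of 55, where 0.15% of all tested miRNAs did, which was miR-496a-3p, one of the strands left out. DESeq2 called 4 miRNAs and none of the members. At an unadjusted p under 0.05 there were 6 higher and 2 lower members, against 7.52% of all miRNAs (4.06% higher, 3.46% lower). Groups did not overlap for 9 higher and 4 lower members, where 14.7% of all had groups apart (7.22% higher, 7.52% lower). The median was 0.10 over the members and -0.01 over all, with 36 of 55 above 0. The log2 fold change of the members followed GC content with a Spearman coefficient of -0.45 (n = 51), against -0.25 over 550 miRNAs.

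miR-1197-3p had 3.90, 5.36 and 4.02 CPM in WT shTRAX libraries and 2.15, 1.58 and 2.46 CPM in WT control libraries. The groups did not overlap, with at most 76 raw counts in any library (1.08 ± 0.23, unadjusted p = 0.00152, adjusted p = 0.252). miR-539-5p had 2.11, 3.59 and 3.43 CPM in WT shTRAX and 1.75, 1.90 and 1.96 CPM in WT control (0.69 ± 0.24, adjusted p = 0.609). miR-410-3p had 18.3, 18.3 and 18.98 CPM in WT shTRAX and 15.1, 14.6 and 15.1 CPM in WT control (0.30 ± 0.11, adjusted p = 0.609). The 3 lowest by p were strands of one site, miR-299b-5p (-0.40 ± 0.13), miR-299a-5p (-0.31 ± 0.11) and miR-299a-3p (-0.38 ± 0.18), with adjusted p of 0.609, 0.609 and 0.623.

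WT shTRAX 1 differed from the other 2 libraries of its group in the miR-376 strands other than miR-376c-3p. miR-376b-5p had 1433, 2448 and 2484 CPM in WT shTRAX and 1809, 1785 and 1750.0 CPM in WT control, so library 1 lay below the controls and the other 2 above them. miR-376c-3p ran the other way, at 340.1, 125 and 266 CPM in WT shTRAX. Without WT shTRAX 1, 9 members passed (8 higher, 1 lower, 16.4%), among 8.41% of 678 miRNAs. The higher ones were miR-1197-3p (1.14, adjusted p = 0.0435), miR-539-5p (0.87, adjusted p = 0.0354), miR-376c-5p, both strands of mir-376b and mir-376a, and miR-300-5p. miR-377-3p was lower. No strand ratio had groups apart in this contrast, where 10.2% of all 215 hairpins did. Without WT shTRAX 1 there were 12 hairpins apart, 6 higher and 6 lower, against 42.3% of all.

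The difference of the shTRAX effect between R6/2 and WT was tested directly as an interaction. None of 55 members passed, where 0% of 689 miRNAs did, by edgeR, and none passed by DESeq2 or limma. At an unadjusted p under 0.05 there were 1 higher member and 3 lower, against 8.85% of all (5.08% higher, 3.77% lower). The largest by p were miR-539-5p (-1.18 ± 0.37, unadjusted p = 0.00881), miR-154-3p (-0.58 ± 0.19) and miR-380-3p (-0.77 ± 0.35) on the lower side. On the higher side were miR-485-5p (1.62 ± 0.71), miR-668-3p (1.42 ± 0.68) and miR-485-3p (1.37 ± 0.67), which were 0.45, 0.31 and 0.22 without R6/2 shTRAX 3. All 6 had an adjusted p of 0.469. Without that library miR-539-5p was -1.04, miR-154-3p -0.53 and miR-380-3p -0.50.

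For 3 members the shTRAX libraries lay below the control libraries in R6/2 and above them in WT with no overlap in either, where 2.32% of all miRNAs had such opposite moves, 1.16% in each direction. These were miR-154-3p, miR-380-3p and miR-381-3p. miR-154-3p averaged 14.5 ± 1.90 CPM in R6/2 shTRAX and 17.9 ± 0.927 CPM in R6/2 control, and 21.5 ± 1.97 CPM in WT shTRAX and 17.2 ± 1.13 CPM in WT control (SD, n = 3). miR-381-3p averaged 1950.4 ± 429.7 CPM in R6/2 shTRAX and 2389.9 ± 149.8 CPM in R6/2 control, and 3119 ± 78.8 CPM in WT shTRAX and 2848 ± 99.7 CPM in WT control. Their interactions did not pass. Over the members the interaction followed GC content with a Spearman coefficient of 0.71 (n = 51), and 0.64 without R6/2 shTRAX 3. Over 564 miRNAs the coefficients were 0.55 and 0.37. With the adjustment for GC content they were 0.27 over the members and 0.06 over all. The part of base composition in these opposite moves was not tested.

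The 6 hairpins left out of the choice of members had been seen as higher under shTRAX in these same libraries, so their values describe that choice and support nothing further. Over their 11 tested strands the median log2 fold change was 0.78 in R6/2 and 0.44 in WT. By edgeR none passed in R6/2, where 0% of all tested miRNAs did, and 1 passed in WT, where 0.15% did. In R6/2 7 of the 11 had an unadjusted p under 0.05, where 10.4% of all did, and DESeq2 called miR-409-3p besides both strands described next.

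That strand, miR-496a-3p, averaged 205 ± 26.1 CPM in WT shTRAX and 88.7 ± 4.40 CPM in WT control (1.20 ± 0.12, adjusted p = 0.009). It passed in 12 of 17 alternatives and lost the call without any 1 WT control library, without WT shTRAX 2 and with all 12 libraries in the fit (adjusted p up to 0.203). In R6/2 it averaged 199.6 ± 68.9 CPM in shTRAX and 97.0 ± 15.2 CPM in control (1.11 ± 0.28, adjusted p = 0.421). There it passed by DESeq2 (adjusted p = 0.0365) and by edgeR without library 3 (1.35, adjusted p = 0.0167).

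miR-412-5p was 1.33 ± 0.25 in R6/2 (adjusted p = 0.421). It passed there by DESeq2 (adjusted p = 0.00352), without library 3 (1.04, adjusted p = 0.0234) and with all 12 libraries in the fit (adjusted p = 0.0482). In WT it was 0.86 ± 0.14 (adjusted p = 0.0836) and passed in 5 of 17 alternatives, among them DESeq2 (adjusted p = 2.87e-05). With the left-out strands counted in, the medians over the cluster were -0.02 in R6/2 and 0.12 in WT. The numbers called were then 0 of 65 under shTRAX in R6/2 and 1 of 66 (1.52%) in WT, against 0% and 0.15% of all miRNAs. In the contrast of genotype under the control virus 6 of 66 (9.09%) were called, against 10.6% of all. Under the shTRAX virus 12 of 66 (18.2%) were called, against 13.8% of all. For the interaction 0 of 66 were called, against 0% of all.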

How the data were processed

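The members, the gene lists and the tests were chosen with earlier results of these data known. The deposited tables list whole-number read counts, 1 row per mature strand and precursor, per the file headers. RPM columns deposited beside them lay within 0.118 of the count divided by its column total and scaled. The authors' signed fold score, p-value and adjusted p-value columns were only read, never recomputed. The submitters' processing notes name bcl2fastq 2.20, Trimmomatic and GRCm38. Per the labels RNA came from TRIzol or a column kit, without saying which for each library, and the QIAseq library kit used tags single molecules. How reads were mapped and counted, whether those tags were used, and what test the authors ran is not stated in any source used here.

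Where a mature name had several precursors (81 of 1915) only the row of highest mean count was used. Counts were fitted with edgeR 4.0.16 in R 4.3.3 by the quasi-likelihood test, with TMM scaling, a minimum count of 10, and Benjamini-Hochberg adjustment over all tested miRNAs at 0.05. Each shTRAX contrast used the 6 libraries of its genotype, and the genotype contrasts and the interaction used 4 group means over 12 libraries. CPM values are scaled by TMM over 12 libraries. The scripts were tested on simulated data. Alternatives used DESeq2 1.42.0, limma 3.58.1 on log2(RPM + 1), other scaling and filters, offsets for GC content (a loess trend, span 0.75) and single libraries left out. DESeq2 and the GC offsets without R6/2 shTRAX 3 were added after seeing the data.

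Members were named if they passed in a comparison (up to 12 each way). Where fewer than 6 passed, the 3 with the smallest p each way were named. Also named were the 8 most abundant members and their partner strands, members with known roles, shared seeds, and the 3 hairpins with the largest ratio difference among those with groups apart. Members named because leaving out a library changed their call were chosen after their values were seen. Hairpin positions and host gene come from GENCODE release 21 for mouse, and sequences from RefSeq.

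The labels do not say that the 3 libraries of a group come from separate animals, so p-values measure the spread between these libraries, which may be technical. Counts over the members differed between libraries of a group by more than sampling noise (chi-square per degree of freedom 7.83 to 647), so none was counted as a repeat. Reads are not shown to be independent molecules, so intervals and floors cover counting error only.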

Additional observations from a re-analysis of the deposited data

How the results depend on the processing

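Under shTRAX in R6/2 the number of members called was 0. It was 2 with DESeq2 (3.7%, against 2% of all miRNAs) and 1 without R6/2 shTRAX 3 (1.85%, against 0.602%). With DESeq2 also without that library it was 4 (7.41%, against 6.17%). With GC offsets also without that library it was 0, against 0.301%. Leaving out single libraries gave 0 to 1. Under shTRAX in WT it was 0, and 1 with the 6 left-out hairpins counted in (miR-496a-3p). It was 0 to 9 with single libraries left out, the 9 without WT shTRAX 1 (16.4%, against 8.41% of all miRNAs). For R6/2 against WT under the control virus the 5 calls became 8 (14.5%) with total counts, with DESeq2 and with limma. The shares of all miRNAs there were 12%, 15.4% and 12.5%. Without a filter on low counts 1 was called (1.59%, against 3.19%). With the 6 control-virus libraries alone 23 were called (41.8%, against 35.2%). With GC offsets also without R6/2 shTRAX 3 it was 14 (25.5%, against 26.1%). Leaving out single libraries gave 1 to 20, the 20 without R6/2 shTRAX 3 (36.4%, against 30% of all miRNAs). Under the shTRAX virus the 10 calls became 5 without a filter (7.94%, against 4.51% of all miRNAs) and 0 with the 6 shTRAX libraries alone. They became 20 with DESeq2 also without R6/2 shTRAX 3, and 3 to 15 with single libraries left out. The shares of all miRNAs are not set beside these last counts, so they are not read as particular to the cluster. The interaction gave 0 in every setting, and the choice of other libraries does not apply to it. Hairpins whose strand ratios did not overlap numbered 8 to 11 under shTRAX in R6/2, 1 to 12 in WT, 13 to 18 and 9 to 13 in the genotype contrasts under the control and the shTRAX virus, with single libraries left out, and a prior of 1 CPM did not change any count. Summing precursor rows put the cluster's share of counts at 1.79%, 1.85%, 2.08% and 1.99% (R6/2 shTRAX, R6/2 control, WT shTRAX, WT control). The replicate numbers of the labels were not used to pair the libraries in the main fits. Same-numbered libraries correlated at -0.318 to 0.279 and differently numbered ones at -0.408 to 0.423. These are deviations from means of 3 libraries, which cannot show whether the numbers mark pairs. With the replicate block 3 members were called under the control virus (5.45%, against 8.56% of all miRNAs) and 4 under the shTRAX virus. With the block and GC offsets there were 4 (7.27%, against 11.5%) and 5. The shares of all miRNAs under the shTRAX virus are not set beside these counts. No member was called in the other contrasts. Single members kept their direction and side of the threshold in 676 cases, lost the call in 131 and gained one in 38. In another 28 their value moved, and none reversed. The causes were not tested. Members under about 10 CPM rest on few reads, at most 198 for miR-679-5p and 60 for miR-539-5p.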

Other observations

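The miRNAs upstream in the same imprinted region, in Meg3, in the transcript antisense to Rtl1 and in Rian, gave 25 tested strands. None was called by edgeR under shTRAX in either genotype or for R6/2 against WT under the control virus. An unadjusted p under 0.05 was reached by 3 strands (12%) under shTRAX in R6/2, where 10.4% of all miRNAs reached it. It was reached by 1 (4%) in WT, against 7.52% of all, and by 2 (8%) in that contrast of genotype, against 23.9% of all. DESeq2 called 1 in the last of these, where it called 15.4% of all, and none under shTRAX. Under the shTRAX virus R6/2 striatum had 3 higher and 1 lower than WT, 4 of 25, where 13.8% of all 689 tested miRNAs passed (7.98% higher, 5.81% lower). miR-127-3p, which is antisense to Rtl1 and targets its mRNA, averaged 17189 ± 3804 CPM in R6/2 shTRAX and 11503 ± 607 CPM in WT shTRAX (SD, n = 3; 0.64 ± 0.15, adjusted p = 0.0235). Without R6/2 shTRAX 3 it was 0.39 (adjusted p = 0.00112). miR-540-3p was 1.18 ± 0.30 (adjusted p = 0.0268) and 0.61 without that library (adjusted p = 0.00104). miR-770-3p was 1.73 ± 0.49 (adjusted p = 0.0404) and 0.60 without it (adjusted p = 0.0189). miR-341-3p was -0.41 ± 0.11 (adjusted p = 0.0371) and -0.46 without it (adjusted p = 0.0169). None of the 4 passed with the 6 shTRAX libraries alone in the fit (adjusted p from 0.192 to 0.241).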
